A study of Mus musculus with 6 samples.

Results

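Hox, Cdx, Meis and Pbx genes encode homeodomain transcription factors that give cells of the embryo their position along the head to tail axis. Hox genes lie in 4 clusters, and genes with low paralog numbers are switched on earlier and reach further forward than genes with high numbers. Cdx factors help to switch on the middle and posterior Hox genes, while MEIS and PBX proteins bind DNA together with HOX proteins as cofactors. Retinoic acid, WNT and FGF signals are known to control Hox genes in the gastrulating embryo. The members were taken by gene symbol, every Hox gene of clusters a to d, and the Cdx, Meis and Pbx genes, which gave 49 of the 46078 genes in the deposited tables. They comprised 39 Hox, 3 Cdx, 3 Meis and 4 Pbx genes.

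Polyadenylated RNA was sequenced from mouse mesoderm explants dissected at E7.25, cultured on fibronectin and collected at 27 h. Groups were PD (1 µM, 16 h), YZ9 (10 µM, 16 h) and control, with 2 libraries each, and the question was how each inhibitor altered the explants. The labels do not spell out PD, and YZ9 inhibits PFKFB3, whose product stimulates glycolysis. All groups were labelled wild type, while the series description names a TCF/Lef:H2B-GFP reporter strain. Neither a vehicle for the controls nor separate embryos or cultures for replicates are stated, so each p-value reflects spread among these libraries alone.

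Libraries held 21253194 to 27810161 counts. By counts of Xist (2119 and 3956, at most 1 elsewhere) and of 4 Y-linked genes (3 and 0, at least 4286 elsewhere), replicate 2 of PD and of YZ9 read as female and the other 4 libraries as male. The PD pair and the YZ9 pair therefore came from different embryos, while for the 2 controls the spread may be technical. Of 16 mesoderm genes, which included Hand1, Pdgfra and Kdr, 15 or 16 had counts in each library. The early mesoderm genes T, Tbx6 and Mesp1 had at most 8, 3 and 7 counts in any library. In bulk RNA, a change in the number of cells of a type and a change in RNA per cell cannot be told apart.

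Among the members, Hoxb1 had the largest log2 fold change of those tested in YZ9 explants, and with PD Hoxb1 was exceeded by Hoxa2 alone, whose value rested on 1 library. The upstream sequences of both genes are shown because each holds letters that fit a joint PBX and HOX site. They are RefSeq windows of 250 bases ending at the transcript start, in build GRCm38.p6, 5′ to 3′ along the gene, and capitals mark motif matches. Hoxb1 is chr11:96365508-96365757 on the plus strand, and Hoxa2 is chr6:52164832-52165081 on the minus strand.
Hoxb1: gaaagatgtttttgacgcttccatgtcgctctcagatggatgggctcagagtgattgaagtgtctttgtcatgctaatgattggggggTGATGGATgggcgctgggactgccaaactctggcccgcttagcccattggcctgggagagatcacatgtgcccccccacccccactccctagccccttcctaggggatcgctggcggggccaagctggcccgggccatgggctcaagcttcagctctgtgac
Hoxa2: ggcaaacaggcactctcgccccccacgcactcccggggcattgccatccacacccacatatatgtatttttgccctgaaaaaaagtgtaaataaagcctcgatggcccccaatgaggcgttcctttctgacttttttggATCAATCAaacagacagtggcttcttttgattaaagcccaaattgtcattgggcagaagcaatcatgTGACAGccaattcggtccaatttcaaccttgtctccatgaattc

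The PBX-HOX motif TGATNNAT was searched on both strands and lay 154 bases before the Hoxb1 start and 103 bases before the Hoxa2 start, there on the opposite strand. Hoxa2 also held the MEIS motif TGACAG, 38 bases before its start. RefSeq windows were at hand for 29 of the 49 members, in 31 windows. TGATNNAT occurred in 4 of these 31 (Hoxa2, Hoxb1, Hoxb8 and Hoxd11) and in 7.68% of all 32851 windows, and TGACAG in 2 of 31 (Hoxa2 and Hoxa3) and 15.9% of all. The CDX letters TTTATNG occurred in 4 of 31 (Hoxb8, Hoxd4, Meis2 and Pbx4) and 9.81% of all. The DR5 site of retinoic acid receptors, taken as 2 copies of AGGTCA 5 bases apart, occurred in 0 of 31 and 0.00913% of all. These matches are descriptions of the letters, and no overlap between motif matches was present in the windows shown.

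Of the 49 members, 6 had 0 counts in all 6 libraries: Hoxa6, Hoxb13, Hoxc11, Hoxc12, Hoxd12 and Cdx4. A further 15 had between 1 and 189 counts in total and did not pass the filter on low counts. The 28 that passed comprised 20 Hox genes (3 of 11 Hoxa, 9 of 10 Hoxb, 6 of 9 Hoxc and 2 of 9 Hoxd), Cdx2, and all Meis and Pbx genes. A gene could pass through the libraries in which it was high, so counts over these 28 describe the genes that passed and not the whole family.

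Per kb of exon, Hoxb5, Hoxb2, Hoxb4 and Hoxb6 were the highest Hoxb genes in controls. Hoxb5 averaged 1.74 CPM per kb there (CPM are counts scaled to library size), Hoxb2 1.51, Hoxb4 1.11, Hoxb6 1.01 and Hoxb1 0.437 CPM per kb. The ranges of Hoxb5 and Hoxb2 overlapped, as did those of Hoxb4 and Hoxb6, whereas Hoxb1 stood below Hoxb6 in both control libraries. By group mean, Hoxb1 headed the Hoxb order in PD explants at 15.8 CPM per kb (26.9 and 4.66) and in YZ9 explants at 11.2 (2.74 and 19.6). In PD replicate 2, however, Hoxb6 (8.01 CPM per kb) and Hoxb5 (6.85) stood above Hoxb1.

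Summed over all 39 Hox genes, the level was 62.6 and 40.4 CPM per kb in PD libraries, 19.2 and 61.0 in YZ9 libraries, and 14.7 and 10.2 in controls. Every inhibitor library lay above both controls. The Hoxb cluster made up 61.6% and 71.8% of this sum with PD, 54.2% and 79.6% with YZ9, and 46.5% and 59.1% in controls. Hoxd genes made up at most 2.77% in any library.

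**Figure D1:**
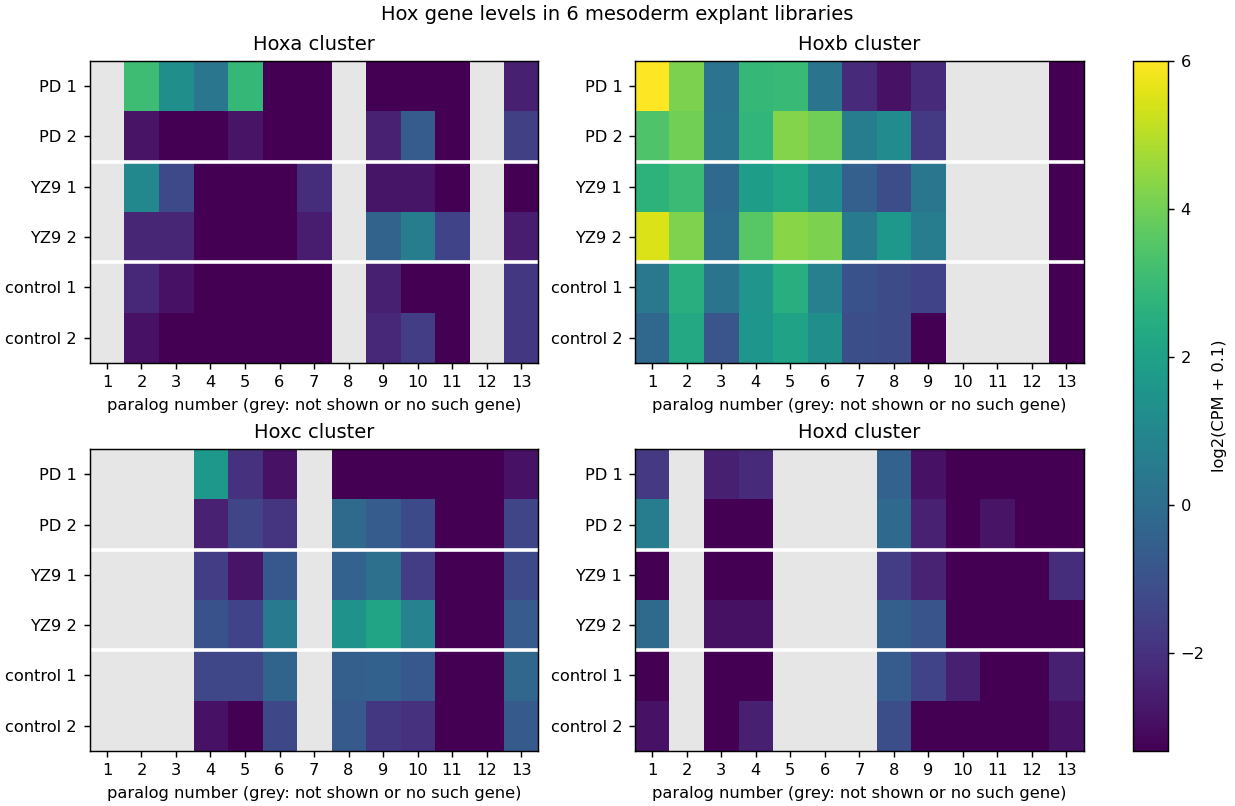
Heat maps of the 4 Hox clusters, with paralog number across and the 6 libraries down, coloured by log2 of CPM plus 0.1; grey marks paralog numbers not shown or not in a cluster. Hoxb1 is brighter in both PD and both YZ9 libraries than in controls. Compared gene by gene across libraries, Hoxa2 to Hoxa5 are brightest in PD replicate 1, and Hoxb6 to Hoxb8 in PD replicate 2 and YZ9 replicate 2.

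In PD explants the genes at the 3′ end of the Hoxb cluster, Hoxb1 and Hoxb2, were at higher levels than in controls in both libraries, and Cdx2 was lower in both. By edgeR's quasi-likelihood test with Benjamini-Hochberg adjustment, 0 of the 28 tested members passed an adjusted p of 0.05, where 0.0964% of all 15568 tested genes did. At an unadjusted p under 0.05, 5 of 28 passed (17.9%; among them Hoxb1, Hoxb2 and Hoxa2 were higher and Cdx2 lower), where 10.8% of all genes did, 5.42% higher and 5.38% lower. DESeq2 called the same 5 genes (background 4.12%) and limma-trend called 0 (background 0.128%). The authors' deposited table gives an adjusted p under 0.05 to 4 of these, among them Hoxb2 (5.89e-05), Hoxb1 (0.000635) and Cdx2 (0.0218), where 3.67% of all genes have one.

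Hoxb1, known for specifying a hindbrain segment and transcribed early in posterior mesoderm, had 62.5 and 10.8 CPM in PD libraries, against 1.24 and 0.790 CPM in controls. The lower PD library was well above the higher control, but the PD libraries differed widely from each other. The mean was 36.6 ± 36.5 CPM with PD and 1.01 ± 0.316 CPM in controls (SD, n = 2 each). The log2 fold change was 5.17 (SE 1.25, edgeR adjusted p = 0.204), and it became 3.41 without PD replicate 1. Hoxb1 (ENSMUSG00000018973) lies on chromosome 11, 96365752 to 96368256, plus strand.

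Its neighbour Hoxb2, a later hindbrain gene, had 17.9 and 16.2 CPM in PD libraries, against 5.66 and 4.89 CPM in controls. Here the replicates lay close together and the groups far apart. The log2 fold change was 1.69 (SE 0.41, edgeR adjusted p = 0.204). Hoxb2 (chromosome 11, 96350525 to 96354012) shares 953 exon bases with Hoxb3os on the opposite strand, and the library kit is not stated to keep the strand, so reads of that overlap cannot be assigned to one gene. Hoxb3os itself had 79 and 43 counts in PD libraries, 39 and 91 in YZ9 libraries, and 27 and 18 in controls.

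Hoxb4, which is expressed in the hindbrain, spinal cord and mesoderm, had 7.27 and 6.96 CPM in PD libraries, against 2.81 and 2.90 CPM in controls. The replicates of both groups were close, and the log2 fold change was 1.32 (SE 0.56, edgeR adjusted p = 0.482). Hoxd1 had 5 and 36 counts in PD libraries, against 0 and 1 in controls (log2 fold change 5.13, SE 2.16, edgeR adjusted p = 0.469). With the counts of each group pooled, the ratio was 42.9 (95% exact binomial interval 7.29 to 1736, counting error only).

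Cdx2, a regulator of posterior axis growth and of trophectoderm, had 0.692 and 0.523 CPM in PD libraries, against 7.38 and 1.62 CPM in controls. The PD libraries were the lowest of the 6. The log2 fold change was -2.88 (SE 0.75, edgeR adjusted p = 0.228), and it became -1.41 without control replicate 1. Cdx2 (ENSMUSG00000029646) lies on chromosome 5, 147300805 to 147307270, minus strand. The 6 trophoblast markers summed to 328 and 54.5 CPM in PD libraries, 175 and 91.8 in YZ9 libraries, and 74.2 and 64.7 in controls, with Krt7 the larger part in PD replicate 1 (292 CPM). Elf5 and Ascl2 had at most 2 and 3 counts in any library and were not tested. Of the 4 tested, 0 passed an adjusted p of 0.05 by edgeR with PD. At an unadjusted p under 0.05, 1 was higher and 2 lower (all genes 5.42% and 5.38%), with a median log2 fold change of -0.86. Eomes had 0 and 0 counts in PD libraries, 67 and 281 in YZ9 libraries, and 185 and 145 in controls. The part of the trophoblast markers in the Cdx2 level was not tested. Of its relatives, Cdx1 had 2 counts in PD replicate 2 and 0 elsewhere, and Cdx4 had 0 throughout.

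Posterior Hoxc genes had few counts. Hoxc6 had 1 and 4 counts in PD libraries, against 19 and 8 in controls (log2 fold change -2.30, SE 1.02, edgeR adjusted p = 0.502; -3.56 without PD replicate 2). Hoxc13 had 1 and 7 counts with PD, against 20 and 14 in controls. Both genes were lower in both PD libraries, while Hoxc8, Hoxc9 and Hoxc10 had 0 counts in PD replicate 1 and 21, 14 and 8 in PD replicate 2.

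Over the tested members, the median log2 fold change with PD was 0.40, against 0.00 over all tested genes. With a library left out the filter was applied afresh, so the set of members could change. The median was then 1.00 without control replicate 1, 0.22 without control replicate 2 and 0.63 without YZ9 replicate 2. The 9 Hoxb genes ranged from 0.26 to 5.17 with a median of 1.46. Both PD libraries lay above both controls for 8 of 28 members (28.6%, background 19.2%) and below for 3 of 28 (10.7%, background 19.5%). Among the 8 were Hoxb1, Hoxb2, Hoxb4, Hoxb5, Hoxd1, Hoxd8 and Pbx2.

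**Figure D2:**
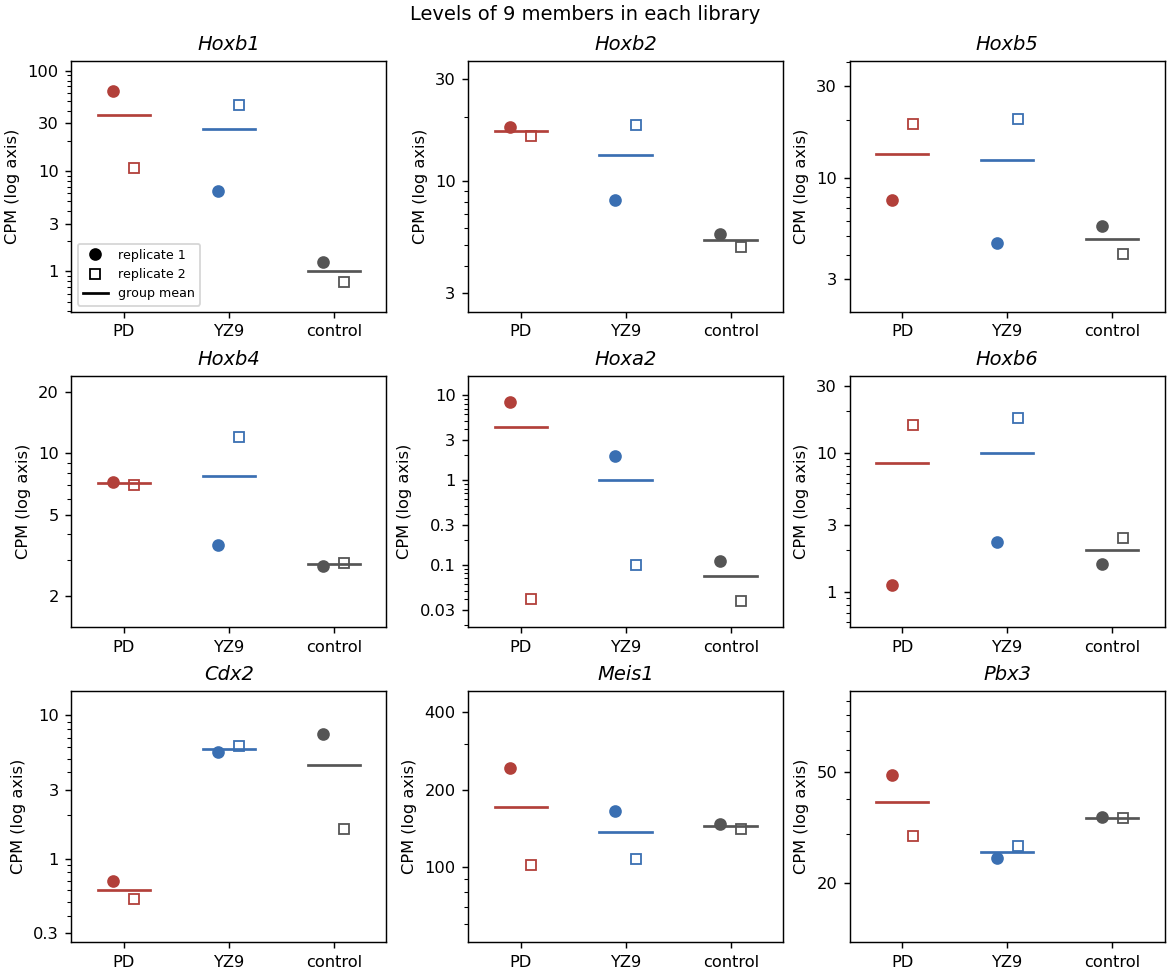
CPM on log axes for 9 of the members in PD, YZ9 and control explants; each point is a library (filled circle replicate 1, open square replicate 2) and the line is the group mean of 2. Hoxb1 is higher in all 4 inhibitor libraries than in controls, Cdx2 is lowest in PD, and Hoxa2 and Hoxb6 split the replicates within a group.

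YZ9 explants also had more Hoxb1 than controls, and their Cdx2 levels lay within the range of the controls. With edgeR 0 of 28 members passed, where 0.00642% of all genes did. At an unadjusted p under 0.05, 5 of 28 passed (17.9%; among them Hoxb1, Hoxb2, Hoxb4 and Hoxb9 were higher), where 11.3% of all genes did, 4.34% higher and 6.93% lower. DESeq2 called Hoxb1 alone (background 3.33%) and limma-trend 0 (background 0.00642%). In the authors' deposited table Hoxb1 (0.00772) and Hoxb6 (0.0331) have an adjusted p under 0.05, as do 3.85% of all genes. Both inhibitors were compared with the same 2 controls, so their values are set side by side here and give no independent support to each other.

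Hoxb1 had 6.36 and 45.6 CPM in YZ9 libraries, against 1.24 and 0.790 CPM in controls. Both YZ9 libraries were above both controls, but one exceeded the other widely. The log2 fold change was 4.68 (SE 1.22, edgeR adjusted p = 0.261), and it became 2.66 without YZ9 replicate 2. Hoxb2 had 8.15 and 18.2 CPM in YZ9 libraries (log2 fold change 1.32, SE 0.40, edgeR adjusted p = 0.326), and 0.64 without YZ9 replicate 2. Hoxb4 had 3.54 and 12.0 CPM (log2 fold change 1.44, SE 0.56, edgeR adjusted p = 0.418), and 0.32 without that library. For Hoxb2 and Hoxb4, YZ9 replicate 1 thus lay only slightly above the controls.

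Hoxb9, a gene of the trunk, had 26 and 42 counts in YZ9 libraries, against 7 and 0 in controls, with similar levels in both YZ9 libraries (log2 fold change 3.25, SE 1.17, edgeR adjusted p = 0.392). It became 2.28 without control replicate 2 and 8.07 without control replicate 1, which left 0 counts in controls. In PD libraries Hoxb9 had 3 and 5 counts. Hoxc9 had 22 and 125 counts in YZ9 libraries, against 17 and 5 in controls (log2 fold change 2.65, SE 1.36, edgeR adjusted p = 0.514), and its value was 1.26 without YZ9 replicate 2. Hoxd1 had 0 and 25 counts in YZ9 libraries, against 0 and 1 in controls (log2 fold change 4.22, SE 2.19, edgeR adjusted p = 0.518). With the counts of each group pooled, the ratio was 25.6 (95% exact binomial interval 4.19 to 1052, counting error only). All of the YZ9 counts came from replicate 2, and the interval leaves out the spread between libraries. Cdx2 had 5.51 and 6.14 CPM in YZ9 libraries, between the control values of 7.38 and 1.62 CPM.

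The median log2 fold change of tested members with YZ9 was 1.08, against 0.00 over all genes. With the filter applied afresh, it was 0.21 without YZ9 replicate 2 and 0.61 without control replicate 2. With sex in the model it was 0.18. Both YZ9 libraries lay above both controls for 10 of 28 members (35.7%, background 21.1%) and below for 2 of 28 (7.14%, background 24.5%), Pbx3 among them.

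**Figure D3:**
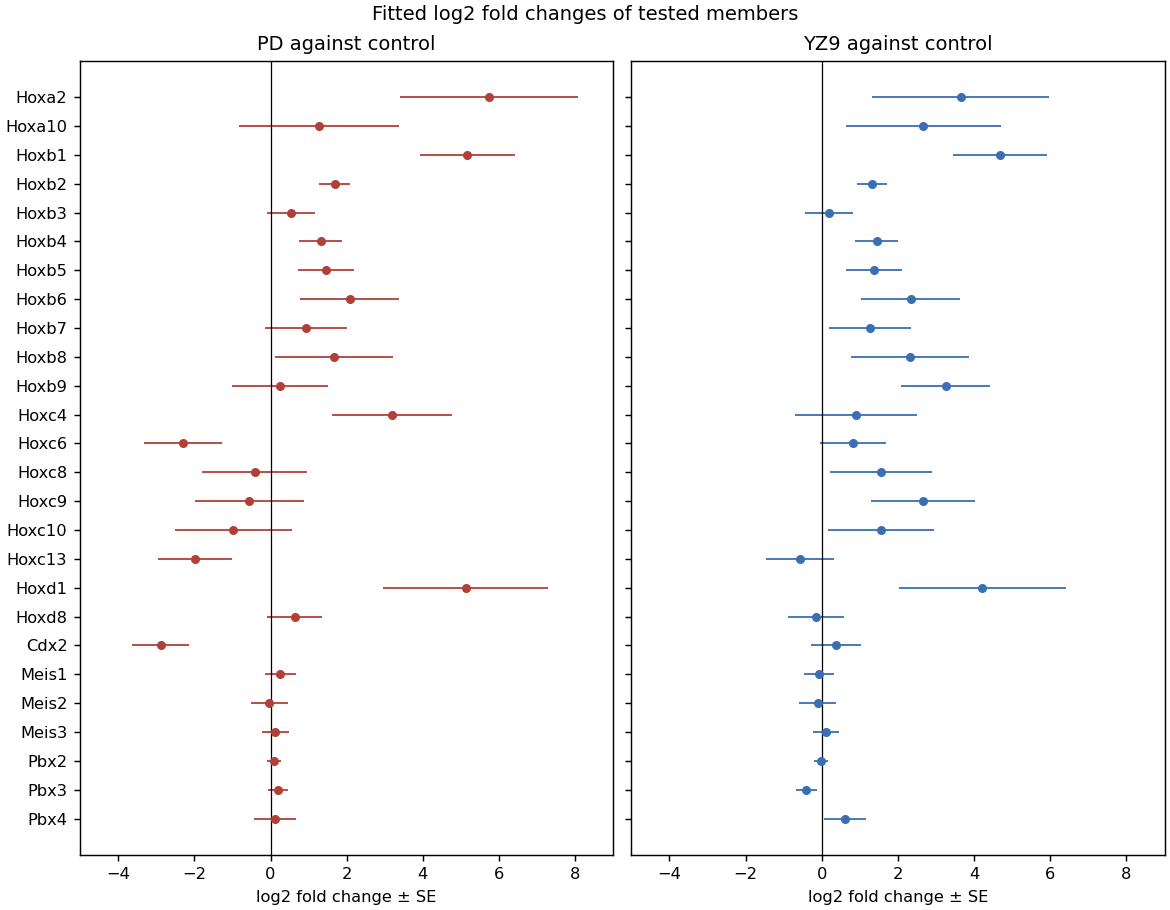
Fitted log2 fold changes of tested members, from Hoxa to Pbx down the page, for PD against control on the left and YZ9 against control on the right; bars are 1 standard error. The 9 Hoxb genes lie to the right of 0 in both panels, Cdx2 lies at -2.88 with PD and 0.37 with YZ9, and the Meis and Pbx genes shown lie between -0.03 and 0.26 with PD.

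Meis and Pbx genes, which encode the cofactors, had the highest levels per kb in controls, apart from Pbx4, and 0 of the 7 passed in any comparison. Meis1 averaged 172 ± 98.9 CPM with PD, 136 ± 40.9 with YZ9 and 144 ± 4.15 in controls (SD, n = 2 each). Meis2 averaged 64.9 ± 47.3, 61.9 ± 11.6 and 66.5 ± 12.0 CPM in PD, YZ9 and control explants, and Meis3 49.7 ± 3.45, 49.3 ± 13.8 and 45.7 ± 21.4 CPM. For all 3 Meis genes the group means differed by less than the largest SD.

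Pbx3 had 48.8 and 29.3 CPM with PD, 24.4 and 27.1 with YZ9, and 34.4 and 34.0 in controls, so both YZ9 libraries lay below both controls (log2 fold change -0.41, SE 0.27, edgeR adjusted p = 0.607). Pbx2 stayed between 27.3 and 31.5 CPM in all 6 libraries. Pbx4 was the least abundant Pbx gene at 0.926 to 2.15 CPM. Over the 7 Meis and Pbx genes, log2 fold changes ran from -0.03 to 0.26 with PD, with a median of 0.12. With YZ9 the median was -0.08 and the values spread more widely, with Pbx3 at -0.41 and Pbx4 at 0.605.

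PD was compared with YZ9 directly, with no controls shared between the arms. With edgeR 0 of 28 members passed (background 0.122%), and 4 of 28 had an unadjusted p under 0.05 (14.3%, background 11.5%), 1 higher in PD (background 7.09%) and Cdx2, Hoxc6 and Hoxb9 lower (background 4.4%). DESeq2 called Cdx2 (background 3.61%) and limma-trend 0 (background 0.218%). Cdx2 averaged 0.608 ± 0.119 CPM with PD and 5.82 ± 0.445 CPM with YZ9, a gap far wider than the spread within either pair (log2 fold change -3.25, SE 0.75, edgeR adjusted p = 0.222). Hoxc6 had a log2 fold change of -3.11 (SE 1.01, edgeR adjusted p = 0.348) and Hoxb9 of -3.00 (SE 1.16, adjusted p = 0.412). For Hoxb1 the value was 0.49 (SE 1.01), and the PD and YZ9 libraries overlapped.

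Both PD libraries lay above both YZ9 libraries for 6 of 28 members (21.4%, background 21.6%) and below for 5 of 28 (17.9%, background 21.4%), shares close to those of all genes. Hoxc9 was among the 5, with 0 and 14 counts in PD libraries and 22 and 125 in YZ9 libraries (log2 fold change -3.20, SE 1.42, edgeR adjusted p = 0.461). Hoxc10 had 0 and 8 counts in PD libraries and 5 and 49 in YZ9 libraries (log2 fold change -2.54, SE 1.498, edgeR adjusted p = 0.571). Pbx3 was higher in both PD libraries (log2 fold change 0.60, SE 0.27, edgeR adjusted p = 0.468). These values rested on single libraries. That of Hoxc9 became -1.81 without YZ9 replicate 2 and -9.11 without PD replicate 2, that of Hoxc10 -0.49 without YZ9 replicate 2, -1.55 without PD replicate 1 and -7.65 without PD replicate 2, and that of Pbx3 0.19 without PD replicate 1 and 0.91 without PD replicate 2.

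The 2 PD libraries differed in which part of the clusters they expressed. In YZ9 explants replicate 2 was the higher library for anterior Hoxb genes, with Hoxb1 at 6.36 and 45.6 CPM. For Hoxb1 the PD libraries went the other way, with 62.5 CPM in replicate 1 and 10.8 in replicate 2. Anterior Hoxa genes were high in PD replicate 1: Hoxa2 had 219 counts, Hoxa3 62, Hoxa4 30 and Hoxa5 188. In PD replicate 2 they had 1, 0, 0 and 1 counts, in YZ9 libraries 43 and 3, 7 and 3, 0 and 0, and 0 and 0, and in controls 3 and 1, 1 and 0, 0 and 0, and 0 and 0. Hoxc4 followed the same split with PD (80 and 2 counts) but not with YZ9 (5 and 12), and had 8 and 1 counts in controls. The log2 fold change of Hoxa2 with PD was 5.73 (SE 2.34, edgeR adjusted p = 0.452) and turned to -0.82 without PD replicate 1. Hoxa2 shares 267 exon bases with Gm28308 on its own strand, and Hoxa3 shares 1529 exon bases with genes on the opposite strand.

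Several middle and posterior genes were high in PD replicate 2 and in YZ9 replicate 2. Hoxb6, a gene of trunk and lateral mesoderm, had 1.11 and 15.7 CPM in PD libraries, 2.28 and 17.7 in YZ9 libraries, and 1.57 and 2.41 in controls. Hoxb5 had 7.65 and 19.1 CPM with PD, 4.57 and 20.3 with YZ9, and 5.66 and 4.03 in controls. Replicate 2 of each inhibitor stood apart, while replicate 1 was at the level of the controls or near it.

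Hoxb8 had 1 and 53 counts with PD, 8 and 89 with YZ9, and 9 and 9 in controls, and Hoxa10 had 0 and 14, 1 and 42, and 0 and 6. Hoxd1, a gene of low paralog number, was split the same way in both inhibitor groups. Replicate 2 of PD and of YZ9 are the female libraries, and with sex in the model the YZ9 log2 fold change of Hoxb5 was 0.15, against 1.36 without it (SE 0.74, edgeR adjusted p = 0.537). Without YZ9 replicate 2 it was -0.069, and without YZ9 replicate 1 2.08. Sex and the other differences between these libraries cannot be told apart.

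**Figure D4:**
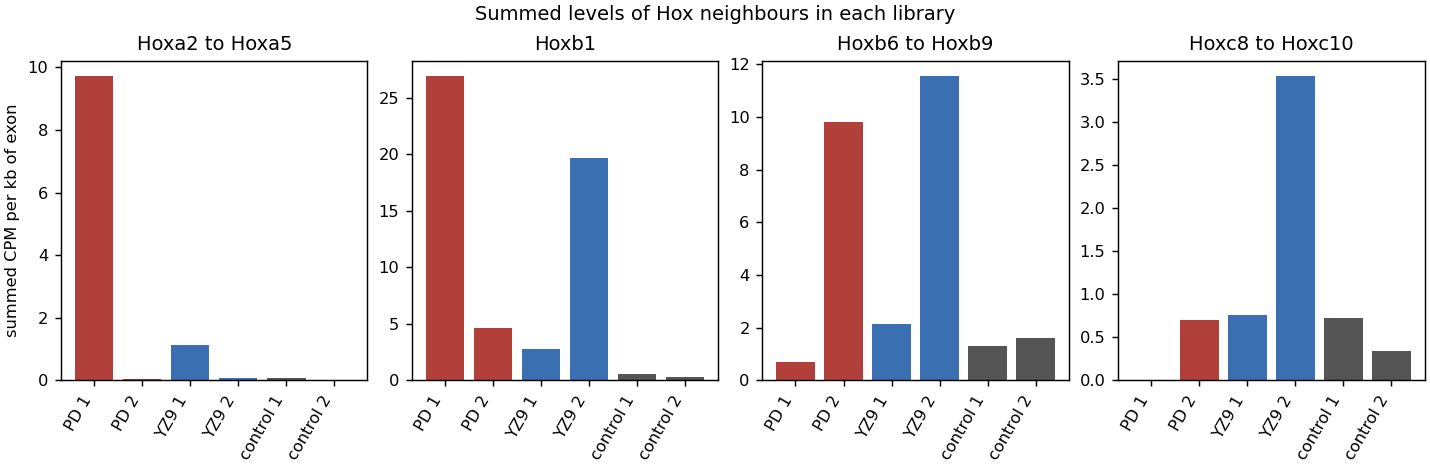
Summed CPM per kb of exon of 4 sets of neighbouring Hox genes in each library (bars start at 0, and each panel has its own scale). Hoxa2 to Hoxa5 reach 9.71 in PD replicate 1, Hoxb6 to Hoxb9 are highest in replicate 2 of each inhibitor (9.81 with PD, 11.5 with YZ9), and Hoxb1 is above controls in all 4 inhibitor libraries.

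Summed levels show the split in one measure. Hoxa2 to Hoxa5 summed to 9.71 and 0.0441 CPM per kb in PD libraries, 1.14 and 0.0738 in YZ9 libraries, and 0.0696 and 0.0212 in controls. Hoxb6 to Hoxb9 summed to 0.702 and 9.81 with PD, 2.16 and 11.5 with YZ9, and 1.30 and 1.60 in controls. Hoxc8 to Hoxc10 summed to 0 and 0.699 with PD, 0.760 and 3.53 with YZ9, and 0.729 and 0.342 in controls. PD replicate 1 was therefore the highest library for the first set and the lowest for the others.

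Marker lists of other cell types are given beside these sums. The 10 visceral endoderm markers summed to 91.2 and 17.9 CPM in PD libraries, 5.06 and 7.59 in YZ9 libraries, and 5.85 and 11.7 in controls. Rbp4 (51.9 CPM) and Afp (34.3 CPM) were the larger part in PD replicate 1. Each marker had a count in some library, but Apoa1, Apoa4 and Apom had at most 5, 2 and 5 counts in any. The 10 gut endoderm markers summed to 1660 and 843 CPM with PD, 955 and 518 with YZ9, and 829 and 526 in controls, with Krt19 a large part (816 and 505 CPM in controls). Of the 9 tested, 0 passed an adjusted p of 0.05 by edgeR in either comparison. At an unadjusted p under 0.05, 6 were higher and 0 lower with PD (all genes 5.42% and 5.38%). The same held with YZ9 (all genes 4.34% and 6.93%), and the median log2 fold changes were 4.17 and 3.63. Sox17, Trh and Krt19 were not among the 6. Cdh1, the E-cadherin gene, had 79.8 and 21.6 CPM with PD, 113 and 30.7 with YZ9, and 1.84 and 3.80 in controls. Foxa2, an endoderm transcription factor gene, had 169 and 79 counts in PD libraries, 23 and 28 in YZ9 libraries, and 0 and 4 in controls. The 8 neurectoderm markers summed to 5.84 and 9.94, 6.90 and 11.7, and 15.6 and 10.8 CPM in PD, YZ9 and control libraries, with Sox1 at 0 throughout. The part of these cell types in the Hox levels was not tested.

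Of 19 genes of retinoic acid synthesis, transport, breakdown and reception, all tested, 0 passed with PD or YZ9 by edgeR over all genes. At an unadjusted p under 0.05, 6 were higher and 3 lower with PD (all genes 5.42% and 5.38%), and 1 higher and 1 lower with YZ9 (all genes 4.34% and 6.93%). Rxrg, a retinoid receptor gene, was among the 2 with the smallest p with PD (0.538 and 0.443 CPM, against 1.99 and 2.52 in controls). With YZ9 the 2 were Aldh1a1 (0.314 and 0.742 CPM, against 5.73 and 4.93) and Cyp26a1, which breaks down retinoic acid (16.5 and 30.3 CPM, against 9.18 and 6.96).

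Named after their values were seen, Aldh1a2, the main enzyme making retinoic acid in early embryos, had 1878 and 10 counts in PD libraries, 25 and 19 in YZ9 libraries, and 7 and 2 in controls. Crabp2, a retinoic acid carrier, had 1836 and 109 counts with PD, 274 and 104 with YZ9, and 80 and 66 in controls. Rarb, a receptor gene that responds to retinoic acid, had 2326 and 579, 461 and 362, and 416 and 266. All 3 were highest in PD replicate 1, the library with the Hoxa2 to Hoxa5 counts. Other genes of this list went both ways. Rdh10 was also highest there (4750 counts). Cyp26a1 was not (272 and 111 counts with PD, 368 and 899 with YZ9, 245 and 185 in controls). Nor was Rara (271 and 454, 456 and 336, and 324 and 174). The part of retinoic acid in the Hoxa2 to Hoxa5 counts was not tested.

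Among 18 genes of posterior signalling, 11 were tested and 0 passed in either comparison. At an unadjusted p under 0.05, 0 were higher and 4 lower with PD (all genes 5.42% and 5.38%), and 1 higher and 0 lower with YZ9 (all genes 4.34% and 6.93%). Lin28a, an RNA-binding protein gene of early embryonic cells, had 219 and 152 CPM in PD libraries, against 457 and 465 in controls, and Lin28b 30.1 and 25.2, against 54.0 and 61.7. With YZ9 the smallest p belonged to Sp5, a direct WNT target (3.81 and 2.56 CPM, against 0.262 and 0.339 in controls), and next to Nkx1-2, a gene of posterior progenitors (260 and 272 counts, against 201 and 99). Wnt3a had at most 1 count in any library.

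Of 23 Polycomb, Trithorax and related genes, all tested, 0 passed in either comparison, and at an unadjusted p under 0.05 PD had 1 higher and 1 lower and YZ9 2 higher and 1 lower, counts near the shares of all genes (5.42% and 5.38% with PD, 4.34% and 6.93% with YZ9). With PD these were Cbx7 (2.77 and 1.73 CPM, against 0.899 and 0.301 in controls) and Jarid2 (57.7 and 46.4, against 72.1 and 71.5). With YZ9 the smallest p belonged to Cbx7 (3.23 and 3.71 CPM) and Cbx2 (26.8 and 16.0, against 8.99 and 7.15). Of 4 other cofactor genes of the same homeodomain class, Pknox1, Pknox2, Tgif1 and Tgif2, 0 had an unadjusted p under 0.05 in either comparison.

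Of 7 genes linked to hindbrain segments, 6 were tested and 0 passed. Epha4, a guidance receptor gene, had 161 and 55.9 CPM with PD, against 253 and 232 in controls. Of 17 noncoding genes in the clusters, 8 had 0 counts everywhere, including the 6 microRNA genes listed, and 4 were tested with 0 passing. Libraries of polyadenylated RNA do not capture mature microRNAs, so those 0 counts do not show that the microRNAs were absent. Hoxb3os had an unadjusted p under 0.05 in both comparisons. Hoxaas2, antisense within the Hoxa cluster, had 66 and 7 counts with PD, 21 and 0 with YZ9, and 2 and 1 in controls.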

How the data were processed

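The values are the authors' deposited tables, 1 for PD and 1 for YZ9 against the same controls, each with 46078 genes. Per the file headers the authors deposited raw counts per gene and library, normalized signal (counts over 1 size factor per library), log2 fold changes with standard errors, a test score, p-values and adjusted p-values. The submitters' processing notes name CASAVA 1.8.2, STAR 2.7.9a, DESeq2 1.40.1 and GRCm38, and name no counting step. The control counts were identical in both tables, which were joined into 6 libraries.

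Genes were filtered with filterByExpr of edgeR 4.0.16 in R 4.3.3 (minimum count 10, minimum total 15), leaving 15568, scaled by TMM and tested by quasi-likelihood in 1 fit of all 6 libraries, 2-sided, with Benjamini-Hochberg adjustment over all genes. SE was taken from each fold change and its F statistic, and CPM use TMM-scaled library sizes. Lengths and positions come from GENCODE M21. Alternatives included DESeq2 1.42.0 and limma-trend (limma 3.58.1, prior count 3). The pipeline was tested on simulated data. Chi-square per gene between replicates was 54.7 to 96.0, so no library was a duplicate, and counting error was small beside the spread between replicates except at low counts. Sex was read from Xist (over 100 counts taken as female). Members and lists were chosen with earlier results of these data known. By rule, full statistics went to the 8 members with the smallest p per comparison, and each list gave members past the threshold and the 2 with the smallest p; other genes were named after their values were seen. Some genes that these rules name are not reported here.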

Additional observations from a re-analysis of the deposited data

How the results depend on the processing

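With edgeR 0 members passed in any of the 3 comparisons, and this held with DESeq2 size factors, a mean count of at least 50, limma-trend, the 4 libraries of a comparison alone and each library left out (range 0 to 0). With PD, 5 of 28 passed with DESeq2 (4.12% of all genes), 7 of 43 without a filter on low counts (2.71%) and 1 of 28 with sex as a covariate (Hoxa2; 0.797%). With YZ9, 1 of 28 passed with DESeq2 (3.33%) and 1 of 43 without the filter (2.11%), and for PD against YZ9 1 of 27 (3.61%) and 3 of 43 (2.29%). Members whose libraries did not overlap numbered 11 of 28 with PD (38.7% of all genes) and 12 of 28 with YZ9 (45.7%), and 7 of 13 (37.8%) and 6 of 13 (46.2%) at a mean count of at least 50.

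The median log2 fold change with PD, 0.40, was 0.52 without the filter, 0.26 at a mean count of at least 50, 0.30 with limma-trend, 0.22 in the 4 libraries alone and 0.26 with sex as a covariate, and ran from 0.22 to 1.00 with single libraries left out. With YZ9, 1.08 was 0.38 at a mean count of at least 50, 0.18 with sex as a covariate and 0.21 to 1.55 with single libraries left out. Each median is over the members that passed the filter of its own setting, so part of these shifts can come from a change of genes. Of 321 alternative values for the 24 named fold changes, 302 stayed on their side of the threshold with the same sign, 16 passed and 3 changed sign, all with a library left out. Hoxa2 with PD ran from -0.82 (without PD replicate 1) to 6.72. With YZ9, Hoxd1 ran from -2.26 to 6.50 and Hoxb5 from -0.069 to 2.08, both lowest without YZ9 replicate 2. The cause was not tested.

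The labels tie replicate numbers to no shared embryo, litter or day, so libraries were not treated as pairs. Deviations of equal numbers correlated at -0.0985 between PD and control, 0.166 between YZ9 and control and 0.353 between PD and YZ9, whose equal numbers also share sex. With the replicate block 0 members passed in each comparison. Members with few counts carry wide counting error.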
